A study of Rattus norvegicus with 11 samples.

Results

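The kainate receptor subunit genes Grik1, Grik2, Grik3, Grik4 and Grik5 were followed in the medial prefrontal cortex (mPFC) of rats with a history of heroin self-administration. Members were the non-control array probes annotated with one of these 5 gene names, out of 35581 names on 41012 probes. Each gene had 1 probe, and each probe had 1 spot per array. All 5 probes were scored well above background on all 11 arrays, so all 5 were among the 25555 probes tested.

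Male rats aged 4 months either self-administered heroin (n = 6) or received saline yoked to a heroin rat (n = 5). All had 14 days of enforced abstinence and were killed after an extinction session, in which responding no longer delivered heroin. Each rat's RNA was hybridised to its own single-colour Agilent whole rat genome array, and no genetic modification is given for either group. A sample was a block of cortex holding all its cell types, so a smaller number of cells of one type and less RNA per cell cannot be told apart.

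Kainate receptors are tetrameric glutamate-gated cation channels, related to AMPA and NMDA receptors. Grik1, Grik2 and Grik3 encode GluK1, GluK2 and GluK3, which form working channels on their own, whereas Grik4 and Grik5 encode the high-affinity subunits GluK4 and GluK5, which need one of the former as a partner. In cortex, kainate receptors on axon terminals adjust the release of glutamate and GABA, and those on cell bodies and dendrites carry slow currents and regulate excitability.

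What each probe read is given here by its position in rat genome build rn3, as the array files give it. The Grik1 probe lay at chr11:27734832-27734891 on the minus strand, the Grik2 probe at chr20:53259323-53259382 on the minus strand and the Grik3 probe at chr5:145067682-145067741 on the plus strand. The Grik4 probe lay at chr8:45522998-45523057 and the Grik5 probe at chr1:80396124-80396183, both on the minus strand. Which exon or untranslated region each position falls in was not analysed here. The sequences of 3 probes, each 60 bases, are shown because their signals varied together between rats. Capitals mark the 20 bases over which the Grik4 and Grik5 probes aligned best without gaps, with 13 identical bases.
Grik1: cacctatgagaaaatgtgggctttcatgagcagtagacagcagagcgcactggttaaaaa
Grik4: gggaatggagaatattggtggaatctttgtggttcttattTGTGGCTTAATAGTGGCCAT
Grik5: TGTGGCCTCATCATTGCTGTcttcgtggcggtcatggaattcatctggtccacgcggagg
The aligned stretch covered the last 20 bases of the Grik4 probe and the first 20 of the Grik5 probe. Whether it bears on their signals was not tested.

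Values are given in array medians, that is, the background-corrected signal divided by the 50th percentile of all non-control probes on the same array. Before this division the 50th percentile was 42.7 to 78.3 intensity units in heroin rats and 58.0 to 83.2 in saline rats. After it the median tested probe was 0.18 higher in heroin rats on the log2 scale, and 78.7% of tested probes were higher. Quantile normalization, which gives every array the same distribution, lowered that median to 0.013, and the change of each subunit is therefore given under both scalings. The levels of the subunits were not set against each other, since brightness also depends on probe sequence. The same limit holds where the rank of a probe's signal or a sum over markers is given below.

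None of the 5 kainate receptor probes passed both thresholds of the study's methods, which ask for 1.4-fold or more and for p under 0.02 before adjustment. The background was 694 of 25555 tested probes, or 2.72%, under the same rule (1.79% higher and 0.927% lower in heroin rats). After quantile normalization the count was again 0 of 5, against 1.79% of all tested probes (0.853% higher and 0.935% lower). With Benjamini-Hochberg adjustment by limma no probe on the array had an adjusted p under 0.05 in either scaling. At an unadjusted p under 0.05, limma gave 4723 probes (18.5%) with percentile scaling and 1971 (7.71%) after quantile normalization, and no kainate receptor probe was among them.

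Among the subunits that form channels on their own, the Grik1 signal was nearly equal in the 2 groups. GluK1 is found on many cortical interneurons, and its mRNA is edited at the Q/R site. Saline replicates 2 to 6 read 1.99, 2.14, 2.26, 1.58 and 1.89 array medians, and heroin rats ranged from 1.51 to 2.31 with a median of 2.08. The groups overlapped over almost their whole range, and heroin replicate 6 and saline replicate 5 were the lowest of each. The heroin mean was 1.97 ± 0.297 (SD, n = 6) and the saline mean 1.97 ± 0.261 (SD, n = 5). The log2 change was -0.0078 (limma SE 0.143, 95% interval -0.31 to 0.30, adjusted p = 0.975), and an exact permutation test gave p = 0.957. After quantile normalization the change was -0.14 (SE 0.134, exact permutation p = 0.301).

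Grik2 encodes GluK2, the main channel-forming subunit of principal neurons. The saline rats read 4.83, 5.28, 5.58, 6.44 and 4.74 array medians, and the heroin rats ran from 4.63 to 7.75 with a median of 6.49. Of the heroin rats, 3 lay above every saline rat and 1, heroin replicate 5, lay below them all. The heroin mean was 6.42 ± 1.05 (SD, n = 6) and the saline mean 5.38 ± 0.688 (SD, n = 5), and the fold from the mean log2 signals was 1.19. The log2 change of 0.25 (SE 0.145, 95% interval -0.063 to 0.56) did not pass the test, with a limma adjusted p of 0.320 and an exact permutation p of 0.108. It was 0.025 (SE 0.111, 95% interval -0.22 to 0.27) after quantile normalization, with an exact permutation p of 0.851. The spread differed too in that scaling, where the saline rats lay close together and the heroin rats did not, as the plot of values by rat shows. The difference in spread was not tested.

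Grik3, which encodes GluK3, a subunit of low sensitivity to glutamate, was read close to the detection limit. On average it reached 2.20 times the detection limit, which is the lowest brightness scored well above background on an array, and it stood at percentile 3.85 of the tested probes. The saline rats read 0.745, 0.491, 0.582, 0.465 and 0.648 array medians, and the heroin rats ran from 0.457 to 0.607 with a median of 0.578. All but 1 heroin rat lay within the saline range, and that rat was just below it. The log2 change was -0.09 (SE 0.149, 95% interval -0.41 to 0.23), with a limma adjusted p of 0.704 and an exact permutation p of 0.519. After quantile normalization it was 0.015 (SE 0.124, exact permutation p = 0.922), so the sign was not kept.

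**Figure D1:**
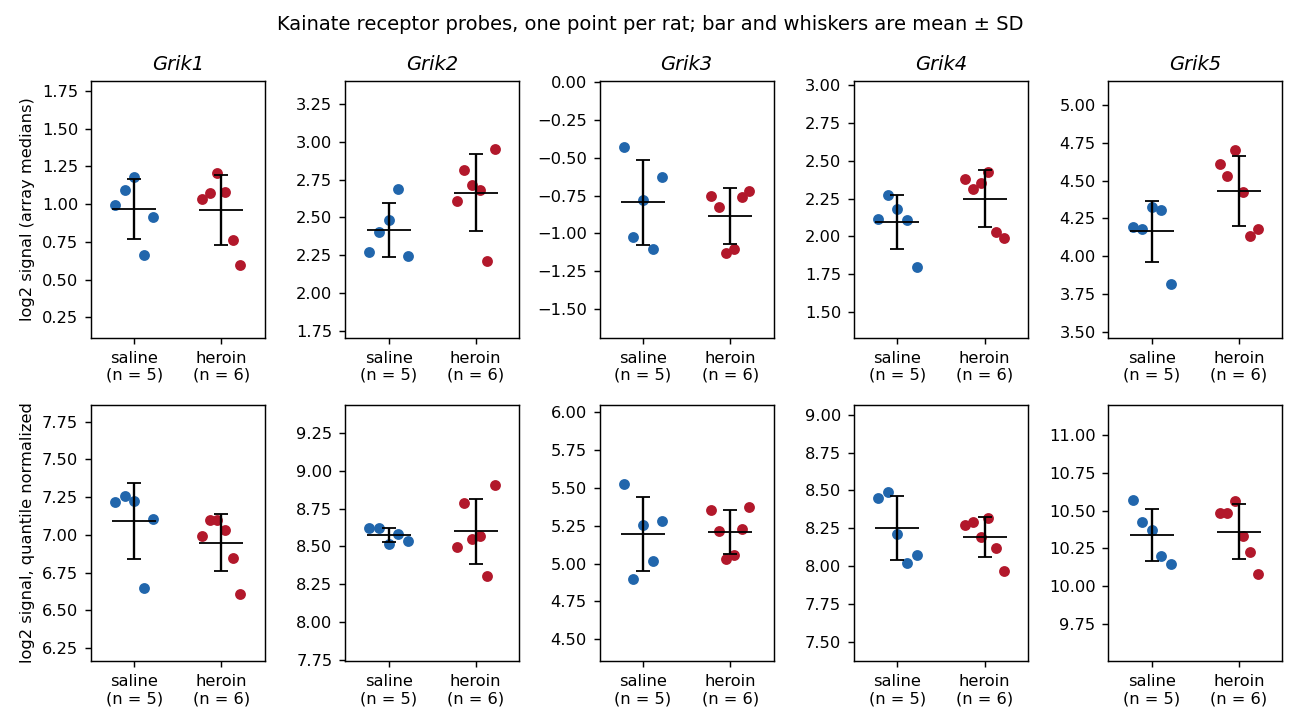
Signal of each kainate receptor probe in each rat on a log2 axis, in array medians (top row) and after quantile normalization (bottom row); points are rats in order of replicate number, and bars with whiskers are the mean ± SD. The panels of a row span equal log2 ranges, and the heroin and saline points overlap in all 10 panels.

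Both high-affinity subunits read higher on average in heroin rats in percentile scaling, by less than the tests could tell from the spread between rats. Grik4 encodes GluK4, known best from CA3 pyramidal cells of the hippocampus. Its saline values were 4.33, 4.83, 4.53, 4.32 and 3.48 array medians, and its heroin values ran from 3.98 to 5.37 with a median of 5.04. In 4 heroin rats the signal was above every saline rat, and the other 2, replicates 5 and 6, lay inside the saline range. The heroin mean was 4.78 ± 0.600 (SD, n = 6) and the saline mean 4.30 ± 0.504 (SD, n = 5). The log2 change was 0.15 (SE 0.132, 95% interval -0.13 to 0.44), a fold of 1.11, with a limma adjusted p of 0.464 and an exact permutation p of 0.197. It turned to -0.058 (SE 0.115, exact permutation p = 0.587) after quantile normalization.

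Grik5 encodes GluK5, the most widely expressed high-affinity subunit of the brain. Its probe read 78.0 times the detection limit on average. The saline rats read 18.3, 18.1, 20.1, 19.8 and 14.1 array medians, and the heroin rats ran from 17.5 to 26.0 with a median of 22.3. As for Grik4, 4 heroin rats lay above every saline rat, and replicates 5 and 6 did not. The heroin mean was 21.8 ± 3.42 (SD, n = 6) and the saline mean 18.1 ± 2.38 (SD, n = 5), and the fold was 1.20. This gave the lowest p of the family, with a log2 change of 0.27 (SE 0.144, 95% interval -0.042 to 0.57), a limma adjusted p of 0.299 and an exact permutation p of 0.0779. After quantile normalization the change was 0.019 (SE 0.117, 95% interval -0.23 to 0.27) and the exact permutation p was 0.864.

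**Figure D2:**
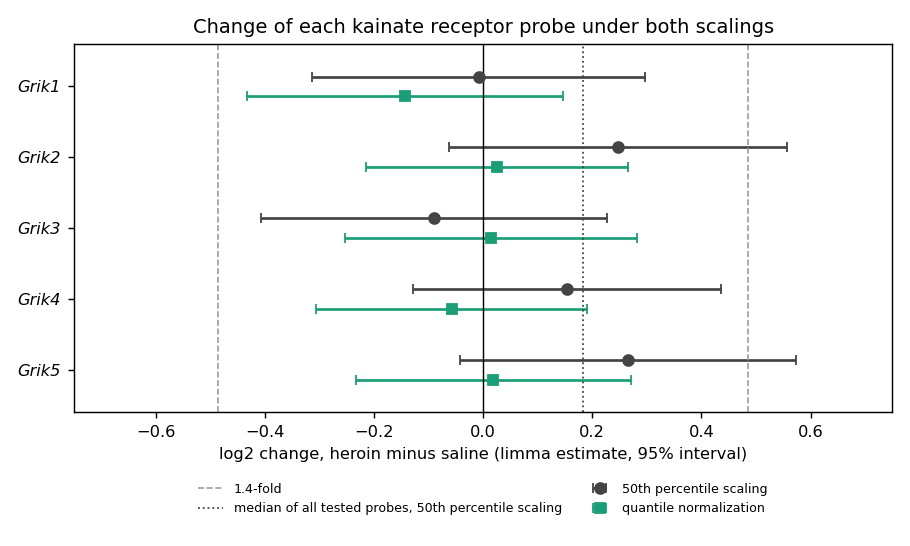
Log2 change (heroin minus saline, limma) of each kainate receptor probe with its 95% interval, under percentile scaling (grey circles) and quantile normalization (green squares); dashed lines mark 1.4-fold and the dotted line the median change of all tested probes under percentile scaling, 0.18. All 10 intervals include 0, and after quantile normalization all 5 lie inside the dashed lines.

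The intervals give the sizes of change that the values allow under each of these scalings. A change of 1.4-fold is 0.49 on the log2 scale, and after quantile normalization the 95% intervals of all 5 probes lay within that size in both directions. In percentile scaling the upper limits of Grik2 and Grik5, 0.56 and 0.57, went beyond it, and those of the other 3 did not. Other settings allowed more. With 75th percentile scaling Grik1 changed by -0.23 (limma SE 0.150) and Grik3 by -0.31 (SE 0.193). Array weights gave Grik5 a change of 0.40 (SE 0.119). With these errors a change of 1.4-fold is not excluded for any of the 3.

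Set among all tested probes, the family's changes lay between percentiles 14.4 and 69.9 in percentile scaling. In percentile scaling the quartiles of all tested probes were 0.037 and 0.29, and the changes of Grik2, Grik4 and Grik5 lay between them. Grik3 stood at percentile 14.4 and Grik1 at percentile 20.5 of all changes, both below the lower quartile. After quantile normalization Grik1 was the lowest of the 5, at percentile 18.0, and the others lay between percentiles 32.7 and 53.0. The median of the 5 probes was 0.15 in percentile scaling and 0.015 after quantile normalization, beside 0.18 and 0.013 for all tested probes.

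**Figure D3:**
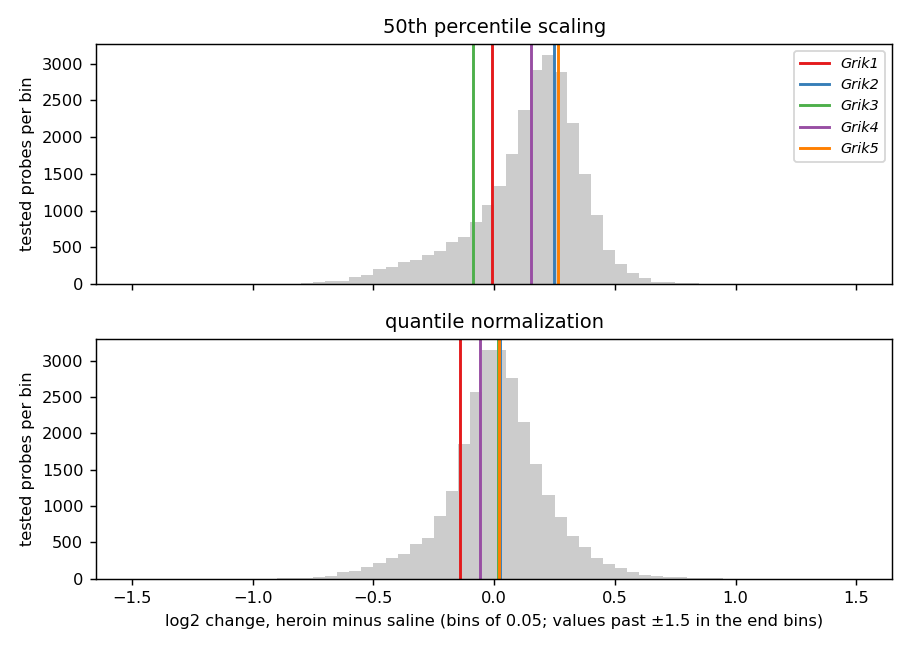
Histogram of the log2 change (heroin minus saline) of the 25555 tested probes in bins of 0.05, under percentile scaling (top) and quantile normalization (bottom), with a vertical line for each kainate receptor probe. In the top panel 78.7% of probes lie above 0, with a median of 0.18, and the lines of Grik2, Grik3 and Grik5 overlap near 0 in the lower panel.

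The arrays had been scanned in pairs, with a heroin and a saline rat of the same replicate number in each of 5 scans and heroin replicate 1 in a scan alone. All saline arrays were at slide position 3 and all heroin arrays at position 4, so position and treatment cannot be told apart. Within the pairs, percentile-scaled Grik5 was higher in the heroin rat in 4 of 5, with log2 differences of 0.34, 0.53, 0.10, -0.17 and 0.36 for numbers 2 to 6. Grik2 differed by 0.54, 0.31, 0.20, -0.48 and 0.71, and Grik4 by 0.20, 0.077, 0.25, -0.082 and 0.19. In all 3 genes the pair with number 5 ran against the other 4. Grik3 was higher in the heroin rat only in that pair, by 0.35, and Grik1 was higher in 3 of 5 pairs. After quantile normalization Grik1 was higher in heroin in 1 pair, Grik4 and Grik5 in 2 each, and Grik2 and Grik3 in 3 each.

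**Figure D4:**
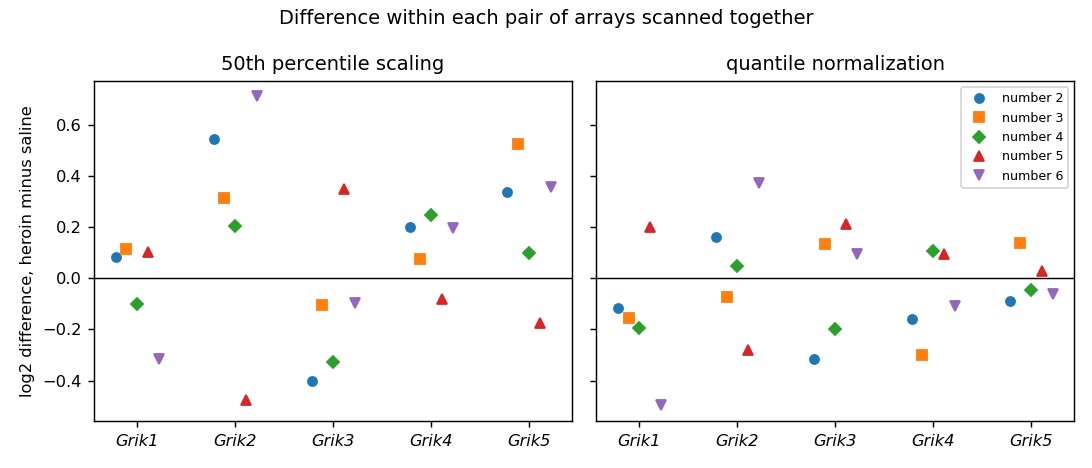
Log2 difference (heroin minus saline) within each of the 5 pairs of arrays scanned together, for each kainate receptor probe, under percentile scaling (left) and quantile normalization (right); symbols mark the replicate number. In the left panel the pair with number 5 lies below 0 for Grik2, Grik4 and Grik5 while their other 4 pairs lie above, and in the right panel every gene has pairs on both sides of 0.

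The subunits did not vary alike from rat to rat. Over the 11 arrays after quantile normalization, Grik4 and Grik5 had a Pearson r of 0.771 and a Spearman rho of 0.709. Grik1 was correlated with Grik4 (r = 0.789, rho = 0.655) and with Grik5 (r = 0.686, rho = 0.491). The other 7 pairs of subunits, each with Grik2 or Grik3, had r between -0.205 and 0.138. Both rats with the lowest Grik1 signal, heroin replicate 6 and saline replicate 5, were also the lowest for Grik4.

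Deviations from the group means gave like values, 0.796 for Grik4 with Grik5, 0.786 for Grik1 with Grik4 and 0.751 for Grik1 with Grik5. Each r was also taken without the 2 arrays farthest from the median, which were not the same for every pair of subunits. Without heroin replicate 6 and saline replicate 5, r fell to 0.566 for Grik1 with Grik4 and to 0.380 for Grik1 with Grik5, so these relations leaned on those arrays. For Grik4 with Grik5 it was 0.769 without heroin replicate 6 and saline replicate 3. That value does not show that this relation leaned less on saline replicate 5. Without heroin replicate 6 and saline replicate 5 the r of Grik1 with Grik2 went from -0.205 to 0.617. Of all other tested probes, 0.693% had an r with Grik4 at least as high as that of Grik5. These correlations describe 10 pairs of probes that share the same arrays, and they moved with the scaling. In percentile scaling r was 0.872 for Grik4 with Grik5, 0.629 for Grik1 with Grik4, 0.481 for Grik1 with Grik5 and 0.584 for Grik2 with Grik5, which was -0.0912 after quantile normalization.

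**Figure D5:**
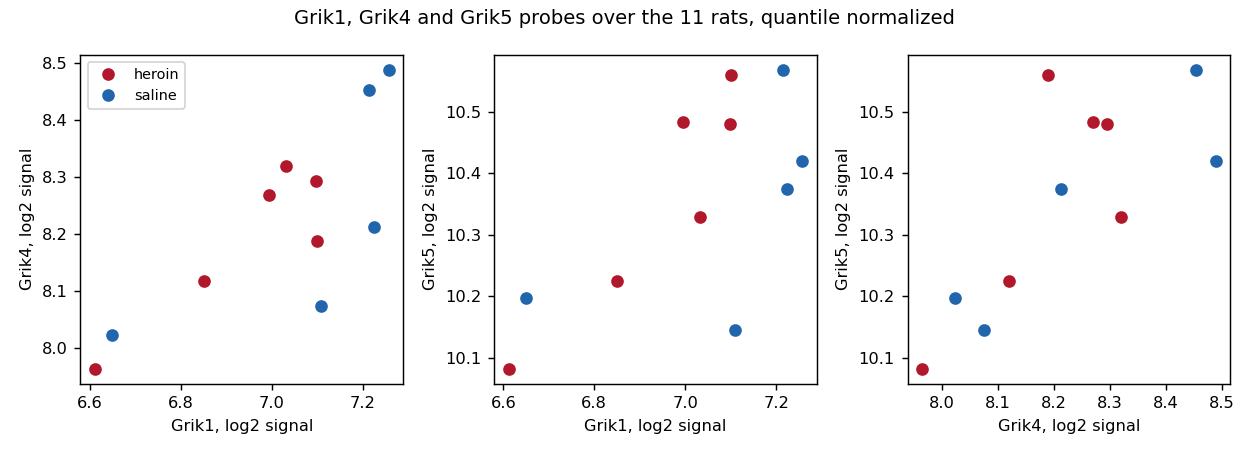
Quantile-normalized log2 signal of Grik1, Grik4 and Grik5 plotted against each other, 1 point per rat (red, heroin; blue, saline). Points of both groups run along the same rising trend, with r of 0.789, 0.686 and 0.771 from left to right, and in the 2 panels with Grik1 a pair of rats sits apart at the lower left.

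The probes most like each subunit, among 5995 named genes compared over the 11 arrays after quantile normalization, were different for each subunit except that Gli3 led for both Grik1 (r = 0.966) and Grik4 (r = 0.866). Grik1 was followed by Gas7 (r = 0.919) and Afg3l2 (r = 0.896), and Grik4 by Nyw1 (r = 0.858) and Calcb (r = 0.857). In percentile scaling the r of Grik4 was 0.217 with Gli3 and 0.328 with Calcb, and that of Grik1 with Gas7 was 0.584, so these likenesses depended on the scaling. The others moved less, to 0.821 for Grik4 with Nyw1, 0.763 for Grik1 with Gli3 and 0.754 for Grik1 with Afg3l2. Grik5 was most like Phgdhl1 (r = 0.956, and 0.963 in percentile scaling), and Psd had an r of 0.909. Grik2 was most like Timp2 (r = 0.912), Aif1 (r = 0.903) and Cacna2d1 (r = 0.890). Grik3 had the weakest neighbours, Gpr153 (r = 0.818), Gfpt2 (r = 0.809) and Foxm1 (r = 0.797). In percentile scaling the r of Grik3 was 0.490 with Gpr153, 0.881 with Gfpt2 and 0.527 with Foxm1. All these genes were picked for the highest r among 5995 over only 11 arrays, and such a search by itself yields high values. They are a description, and none of these likenesses was tested.

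In the AMPA and NMDA receptor families, 1 gene passed the thresholds, which 2.72% of all tested probes passed. Both probes of Gria2, the AMPA subunit whose edited form keeps calcium out of the channel, were higher in heroin rats, with log2 changes of 0.50 (SE 0.170) and 0.57 (SE 0.139) and a limma adjusted p of 0.263 for each. These changes were 0.26 and 0.32 after quantile normalization, and neither passed. Of the 4 AMPA genes the median over 6 probes was 0.33 (0.099 after quantile normalization). No probe of the 6 NMDA receptor genes tested passed, with changes from -0.15 to 0.38 over 8 probes in percentile scaling and from -0.39 to 0.29 after quantile normalization. The seventh NMDA receptor gene, Grin3b, was detected on 7 of 11 arrays and was not tested.

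Proteins that bind, transport or modify kainate receptors were followed as lists. Of 11 PDZ and cytoskeletal partners, measured by 16 probes, 1 probe passed the thresholds (2.72% of all tested probes did), that of Ctnnb1 (beta-catenin, which links cadherins to the cytoskeleton), at 0.51 (SE 0.120, limma adjusted p = 0.263). It was 0.28 after quantile normalization and did not pass. The second Ctnnb1 probe did not pass, with a change of 0.23 in percentile scaling and 0.28 after quantile normalization. The list's median change was 0.24 in percentile scaling and 0.032 after quantile normalization. None of the 2 tested SUMO pathway genes, the 2 tested RNA editing enzymes or the 3 probes of Snap25 and Vsnl1 passed in either scaling. No probe was matched here to the auxiliary subunits Neto1 and Neto2 or to the ligands C1ql2 and C1ql3. Gria2 and Ctnnb1 had been listed by the study from these same arrays, so their calls are not independent evidence. The paper also tested both genes by RT-qPCR, which by its account did not bear out the array differences.

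Cell type markers were read beside these values. All 5 interneuron marker genes and Slc17a7, the 1 excitatory marker of 4 with a matched probe, were detected on all 11 arrays. In percentile scaling 78.7% of all tested probes were higher in heroin rats. In that scaling the summed interneuron marker signal was 294 to 409 array medians in heroin rats and 233 to 324 in saline rats. The brightest probes, of Sst and Vip, weigh most in this sum. After quantile normalization 4 of 7 interneuron probes were higher in heroin rats, with changes from -0.13 to 0.25. Of these 7, 1 (Vip) passed the thresholds in percentile scaling, which 2.72% of all tested probes passed. Its change was 0.49 (limma SE 0.131, adjusted p = 0.263), and it did not pass after quantile normalization. In percentile scaling oligodendrocyte markers summed to 336 to 839 in heroin rats and 278 to 887 in saline rats. In the same order astrocyte markers gave 310 to 425 and 262 to 396, and microglial markers 35.0 to 90.8 and 39.0 to 57.1. Striatal markers summed to 18.5 to 25.8 in heroin rats and 15.7 to 35.8 in saline rats, and Drd2 was detected on 8 of 11 arrays. After quantile normalization no marker probe passed. Of the 9 oligodendrocyte probes, which read 4 genes, 0 were then higher in heroin rats, against 5 in percentile scaling. Their changes after quantile normalization ran from -0.60 to -0.063 with a median of -0.24. The part of these cell types in the kainate receptor values was not tested.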

How the data were processed

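The authors labelled 500 ng of RNA per rat with Cy3 and deposited, per array, spot intensities corrected for background and spatial trend by Feature Extraction 9.5.1.1, not scaled between arrays. A deposited table of each probe's ratio to its median over arrays (23670 probes, GeneSpring) served as an alternative. Here intensities below 5 were set to 5, probe means were divided by each array's 50th percentile over non-control probes, and log2 was taken. Spots marked by the software were left out (99 to 231 per array, none of a kainate receptor probe). Probes detected on all 11 arrays were compared with limma 3.58.1 (lmFit, eBayes, R 4.3.3), with two-sided p-values adjusted by Benjamini-Hochberg over 25555 probes. A further 32 probes without 2 usable arrays per group were left out. Exact permutation tests, two-sided, used all 462 divisions of the rats (smallest p 0.00216). The methods' thresholds were used, with their analysis of variance replaced by limma. The fit was tested on simulated data. The precision of the array values is limited by the number of rats. Named were all kainate receptor probes, list genes past both thresholds and, per subunit, the 3 genes with the highest r, apart from results not reported here. The members and lists were chosen with earlier results of these data known. The paper describes 6 arrays per group, but the saline replicate numbers available here run only from 2 to 6. Other scalings, background correction, filters, tests, a replicate block and leaving out each rat were tried.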

Additional observations from a re-analysis of the deposited data

How the results depend on the processing

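No kainate receptor probe passed both thresholds in any alternative. Grik2 was above 0 in all 25 settings, but by 0.025 to 0.056 (SE 0.0866 to 0.114) with 75th percentile, detected-probe or quantile scaling or normexp. The directions of the other 4 depended on the setting. Grik4 was -0.064 with 75th percentile scaling, -0.058 after quantile normalization, -0.037 with the 50th percentile of detected probes and -0.024 with normexp background correction. Grik3 was 0.015 after quantile normalization and 0.021 with normexp, Grik5 was -0.0096 with normexp, and Grik1 was 0.016 with array weights. With 75th percentile and detected-probe scaling Grik1 was -0.23 and -0.20 and Grik3 was -0.31 and -0.28. Array weights gave Grik5 a limma adjusted p of 0.0262 at a change of 0.40, under 1.4-fold, and 8425 of all probes an adjusted p under 0.05.

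Leaving out each rat in turn gave ranges of -0.085 to 0.064 for Grik1 (above 0 without heroin replicate 5 or 6 or saline replicate 3 or 4), 0.19 to 0.34 for Grik2, -0.17 to 0.0021 for Grik3 (highest without saline replicate 2), 0.079 to 0.20 for Grik4 and 0.18 to 0.32 for Grik5. Over all probes, 343 (without saline replicate 2) to 2352 (without saline replicate 5) passed both thresholds, with 393 without saline replicate 3, and 0 to 1 (without heroin replicate 6) had an adjusted p under 0.05. The count past both thresholds was 457 after quantile normalization, 41 with normexp (1 at an adjusted p under 0.05), 1560 without a detection filter, 1067 with detection in 1 group, 308 by the methods' t-test and 2488 with array weights.

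Deviations of same-numbered rats from their group means had r of 0.384, -0.133, 0.349, 0.0168 and -0.237 for numbers 2 to 6, and number 4 alone correlated best with its own number. These values cannot show whether same-numbered rats were yoked partners. The main fit and the permutation tests did not pair the rats. With the replicate number as a block, which is also the scan, the changes were -0.023, 0.26, -0.12, 0.13 and 0.23 for Grik1 to Grik5, with none past the thresholds and 805 of all probes past. The files used here do not name the slide, so a slide block was not run separately. Grik3 had no value in the authors' table of ratios.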
